A study of Ictidomys tridecemlineatus with 5 samples.

Results

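Microglia and macrophages are the resident phagocytes of the eye. Microglia lie within the retina, where they survey synapses and clear debris, and other macrophages sit along vessels and in the uvea, the ciliary body and the corneal stroma. Both depend on signalling through the receptor CSF1R, and many of their surface receptors signal through the adaptor TYOBP, also called DAP12. Their transcripts are described here for the ground squirrel, Ictidomys tridecemlineatus, a hibernating rodent active by day, as 9 genes set by name: AIF1, CSF1R, PTPRC, CD68, TYOBP, TREM2, P2RY12, CX3CR1 and CD74. The Swiss-Prot names of the last 3 are P2Y12, CX3C1 and HG2A. A transcript was taken as belonging to a gene when its best Swiss-Prot hit carried that name, which gave 32 transcripts, 19 in eye and 13 in retina, out of 124686 transcripts with a hit and 15938 names in either table.

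RNA of eye tissue (2 libraries) and of isolated retina (3 libraries) from wild-type animals was sequenced, and each library preparation pooled RNA of 4 animals, per the labels. Lens, corneal and photoreceptor transcripts were all in the eye table. Because each transcript has a single value per tissue, with the libraries combined, differences between eye and retina could not be set against the spread of replicates, and no test was made. The level of a gene is the RPKM (reads scaled by transcript length and by a total for the tissue) of its highest transcript, and intervals are 95% Poisson intervals on the reads behind that value, which cover counting error only. Tissue markers followed the labels, with 4 of 4 lens and corneal names past 2-fold toward eye and 5 of 5 photoreceptor and bipolar names lower in eye. Of the 9 genes, 8 were in both tables and 1, CSF1R, had a transcript in the retina table only.

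Of the 8 genes found in both tables, 7 were higher in eye than in retina beyond counting error, and P2RY12 was not: its interval included equal levels. The ratio of eye to retina ran between 1.03 for P2RY12 and 5.91 for CD68, with a median of 3.74. On the scale log2(eye RPKM + 1) minus log2(retina RPKM + 1), which understates the difference of low genes, their median difference was 1.20, against -0.0035 over all 13383 proteins compared. On that scale 5 of the 8 were at least 2-fold higher in eye, namely CD74, CD68, TYOBP, AIF1 and TREM2, where 11.8% of all proteins were. None of the 8 was at least 2-fold higher in retina, where 3.6% of all proteins were. By sign alone all 8 were higher in eye, beside 49.7% of all proteins. TREM2 and PTPRC were below 1 RPKM in retina and passed the filter of 1 RPKM only through eye, so these counts lean toward eye. Without that filter 5 of the 8 passed 2-fold toward eye, where 11.3% of all proteins did. In bulk tissue fewer cells of a type and less RNA per cell cannot be told apart.

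**Figure D1:**
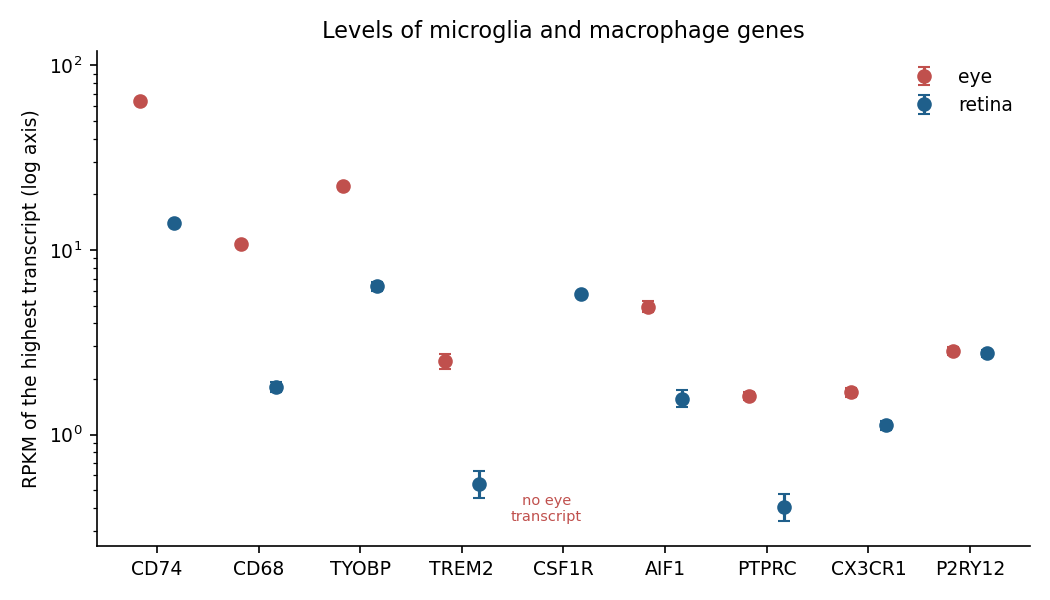
Level of each gene in eye (left point of each pair) and retina (right point), as RPKM of its highest transcript on a log axis; bars are 95% Poisson intervals of the reads. CD74 and TYOBP were highest in both tissues, CSF1R had no eye transcript, and the eye and retina points of P2RY12 lay at 2.83 and 2.76 RPKM.

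On the log2(RPKM + 1) scale CD74 and CD68 had the largest differences of the 8 genes, though by linear ratio TREM2, at 4.62, stood just above CD74, at 4.604, and by length-weighted means the ratio of CD74 was 3.06, below the 3.47 of TYOBP. CD74 encodes the invariant chain, which guides MHC class II molecules through the cell. It stood at 64.3 RPKM in eye (63.3 to 65.3), against 13.96 RPKM in retina (13.6 to 14.3), a difference of 2.13 on the log2 scale. It was the most abundant of the genes in both tissues, and made up 58.1% of the level summed over the 8 genes in both tables in eye and 48.9% in retina. CD68, or macrosialin, is a lysosomal membrane glycoprotein of phagocytes. Its level was 10.7 RPKM in eye (10.4 to 11.0) and 1.81 RPKM in retina (1.70 to 1.93), a difference of 2.06. The differences of CD74 and CD68 lay at percentiles 96.6 and 96.4 among all proteins compared.

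TYOBP carries the cytoplasmic signalling motif that TREM2 and other receptors lack. It was at 22.1 RPKM in eye (21.4 to 22.9) and 6.37 RPKM in retina (6.01 to 6.74), a ratio of 3.47 and a difference of 1.65. TREM2, a receptor for lipids and lipoproteins on phagocytes, was at 2.50 RPKM in eye (2.27 to 2.74) and 0.540 RPKM in retina (0.455 to 0.637), a ratio of 4.62 (3.82 to 5.59) and a difference of 1.18. Within a tissue the receptor was far below its adaptor, with a level 0.113 times that of TYOBP in eye and 0.0848 times in retina.

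AIF1, the calcium-binding protein known as IBA1 and a common stain for microglia and macrophages, was at 4.93 RPKM in eye (4.61 to 5.26) and 1.57 RPKM in retina (1.41 to 1.73). Its difference was 1.21. PTPRC, the phosphatase CD45 found on white blood cells, was the lowest of the genes in both tissues, at 1.62 RPKM in eye (1.55 to 1.70) and 0.405 RPKM in retina (0.340 to 0.479). The linear ratio of PTPRC was 4.00 (3.36 to 4.77), but its difference on the log2(RPKM + 1) scale was 0.90, just under the 2-fold mark, since both levels were near the pseudocount of 1. With a pseudocount of 0.1 the difference of PTPRC was 1.77, and 6 of the 8 genes passed 2-fold beside 15% of all proteins. With a pseudocount of 5 it was 0.29, and 3 genes passed beside 6.09% of all proteins.

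The chemokine and purine receptors stood nearest to equal levels. CX3CR1, the fractalkine receptor through which neurons signal to microglia, was at 1.69 RPKM in eye (1.60 to 1.79) and 1.12 RPKM in retina (1.06 to 1.19), a ratio of 1.51 (1.39 to 1.63) and a difference of 0.34. P2RY12, an ADP receptor that guides microglial processes and marks resting microglia in the brain of mouse and human, was at 2.83 RPKM in eye (2.70 to 2.97) and 2.76 RPKM in retina (2.65 to 2.88). Its ratio was 1.03 (0.962 to 1.09) and its difference 0.027, at percentile 52.3 among all proteins. The counting intervals of the P2RY12 and CX3CR1 ratios lay below those of the other 6 genes, the lowest of which began at 2.79 for AIF1. When both tissues were rescaled to an equal total the difference of P2RY12 was -0.18, where the median of all proteins was -0.25.

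**Figure D2:**
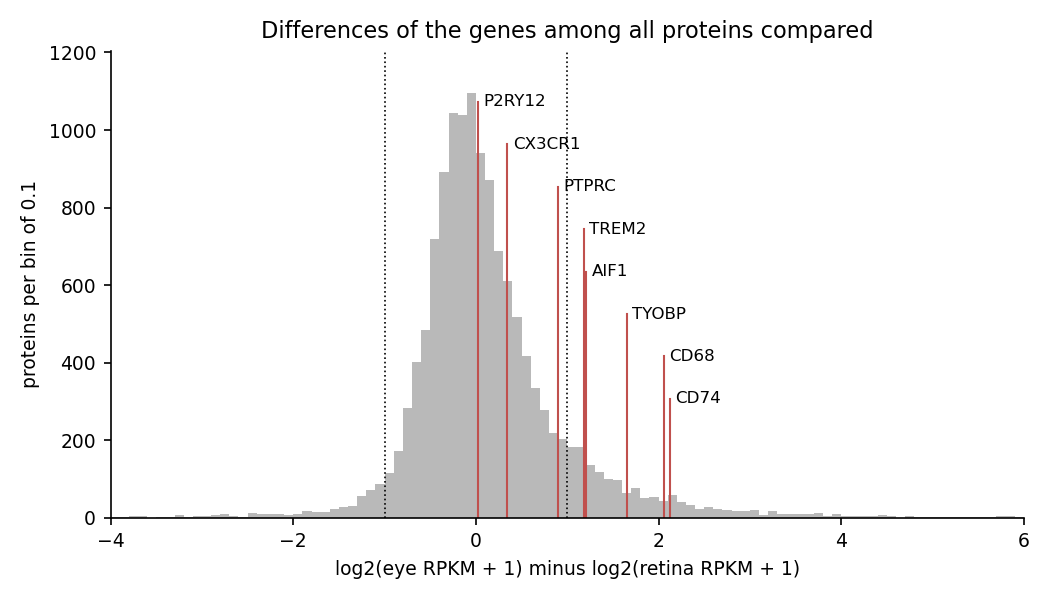
Grey bars count all 13383 proteins by their difference, log2(eye RPKM + 1) minus log2(retina RPKM + 1), in bins of 0.1; red lines mark the 8 genes and dotted lines the 2-fold mark on either side. P2RY12 lies in the middle of the distribution and CD68 and CD74 in its right tail; 13 proteins below -4 and 23 above 6 are not drawn.

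The order of the genes differed between the tissues. In eye it ran CD74, TYOBP, CD68, AIF1, P2RY12, TREM2, CX3CR1 and PTPRC, and the intervals of the neighbours P2RY12 and TREM2, and of CX3CR1 and PTPRC, overlapped. In retina it ran CD74, TYOBP, CSF1R, P2RY12, CD68, AIF1, CX3CR1, TREM2 and PTPRC, and the intervals of CD68 and AIF1, and of TREM2 and PTPRC, overlapped. P2RY12 was thus below CD68 and AIF1 in eye and above both in retina. A ratio within a tissue does not depend on how the tables were scaled to each other: P2RY12 stood at 0.264 times the level of CD68 in eye and 1.52 times in retina, and at 0.574 times the level of AIF1 in eye and 1.76 times in retina. CX3CR1 stood at 0.158 times the level of CD68 in eye and 0.619 times in retina. These pairs were chosen after their values had been seen.

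The genes were of modest abundance in both tissues. The median level over all names was 8.01 RPKM in eye and 7.92 RPKM in retina, and 5 of the 8 genes in the eye table and 8 of the 9 in the retina table lay below it. CD74 was at percentile 92.4 of all names in eye and 66.4 in retina, and TYOBP at 77.6 in eye and 43.8 in retina. PTPRC was at percentile 14.5 in eye and 3.27 in retina. The smallest number of reads behind a level was 136, for PTPRC in retina, and the largest was 15448, for CSF1R in retina.

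CSF1R, the receptor for the growth factors CSF1 and IL-34 that microglia and macrophages need to survive, had 1 transcript, in retina, at 5.74 RPKM (5.65 to 5.83). There it stood after CD74 and TYOBP. The transcript was 7561 bases long and aligned over 974 residues to the human protein, with 86% positive positions. Of retina transcripts with a hit, 1.06% were longer. No eye transcript had CSF1R as its best hit, so CSF1R has no difference, and because the tables list assembled transcripts only, no upper limit can be set for eye. Receptors of the same family were in both tables. PDGFRA (PGFRA) was at 4.13 RPKM in eye and 1.59 RPKM in retina, and PDGFRB (Swiss-Prot PGFRB) was at 10.1 RPKM in eye and 4.00 RPKM in retina. KIT was at 11.0 RPKM in eye and 12.9 RPKM in retina, on unlike transcripts of 870 and 5113 bases. FLT3 was at 2.84 RPKM in eye and 5.54 RPKM in retina. In RefSeq's annotation of assembly mIctTri1.hap1, Csf1r and Cd74 lie on the same chromosome with 12 annotated genes between them, 7 of them protein-coding, and Csf1r overlaps an uncharacterised locus.

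The CSF1R and CX3CR1 ligands were in both tables. CSF1 was at 2.92 RPKM in eye and 0.616 RPKM in retina, a difference of 1.28. IL34, the second CSF1R ligand and a product of neurons and keratinocytes, was at 9.17 RPKM in eye and 3.92 RPKM in retina, a difference of 1.05. Fractalkine, CX3CL1 (X3CL1), was at 10.9 RPKM in eye and 7.43 RPKM in retina, a difference of 0.49, with a ratio of 1.46 beside the 1.51 of its receptor. Of the 7 ligands and surface signals listed, 5 were higher in eye and 3 passed 2-fold, beside 49.7% and 11.8% of all proteins; the list median was 0.90. The other past 2-fold was GAS6, which bridges dying cells to phagocyte receptors, at 31.8 RPKM in eye and 12.1 RPKM in retina. CD200 (OX2G) and CD47, both inhibitory signals that neurons display to phagocytes, were at 27.4 RPKM in eye against 32.1 RPKM in retina and at 24.2 RPKM in eye against 25.7 RPKM in retina.

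The individual transcripts show what each level rests on. Highest transcripts were between 524 and 7561 bases long, and none was under 200 bases. For 5 genes, AIF1, CD68, TYOBP, P2RY12 and CX3CR1, the highest transcripts of both tables aligned over the same number of residues (147, 345, 114, 338 and 342) and had nearly the same length, so their comparison is between like transcripts. AIF1 had 2 eye transcripts, at 4.93 and 4.80 RPKM, and CD68 had 3, at 10.7, 10.6 and 8.70 RPKM. Each of these genes had 1 transcript in retina. P2RY12 rested on transcripts of 2190 bases in eye and 2216 in retina, and CX3CR1 on 2940 in eye and 2937 in retina. TYOBP rested on 551 bases in eye and 524 in retina. In the RefSeq annotation the P2ry12 gene overlaps Med12l, whose transcripts (MD12L) were at 1.20 RPKM in eye and 1.41 RPKM in retina, and the labels do not say whether counting used strand.

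The other 3 genes in both tables were compared between unlike transcripts. CD74 had 7 eye transcripts, between 5.89 and 64.3 RPKM, and 2 retina transcripts, at 13.96 and 12.9 RPKM. Its highest eye transcript, of 905 bases, aligned over 135 residues, and its highest retina transcript, of 1363 bases, over 192. One eye transcript with the same alignment of 192 residues and the same score, 330.102, as the retina one was at 51.0 RPKM, a ratio of 3.66, and another with 192 aligned residues was at 9.80 RPKM, a ratio of 0.702. TREM2 had 3 eye transcripts, at 2.50, 2.11 and 1.34 RPKM, and 1 retina transcript, and the alignments of the highest covered 164 residues in eye and 199 in retina. PTPRC was a single eye transcript of 4235 bases aligned over 1084 residues, but 4 retina pieces of 944, 366, 814 and 151 bases with 136, 50, 98 and 11 reads.

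Averages weighted by transcript length narrow this gap in what is compared. By that measure CD74 stood at 41.0 RPKM in eye and 13.4 RPKM in retina, a ratio of 3.06. TREM2 stood at 2.13 RPKM in eye and 0.540 RPKM in retina, a ratio of 3.94, and PTPRC at 1.62 RPKM in eye and 0.364 RPKM in retina, a ratio of 4.45. Sums over transcripts instead put CD74 at 254.5 RPKM in eye and 26.8 RPKM in retina, but PTPRC at 1.62 RPKM in eye and 1.33 RPKM in retina, since adding the RPKM of pieces of a transcript raises its level in retina. AIF1, CD68 and TREM2 also had more transcripts in eye than in retina. With sums their differences on the log2 scale were 2.06, 3.46 and 2.17.

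**Figure D3:**
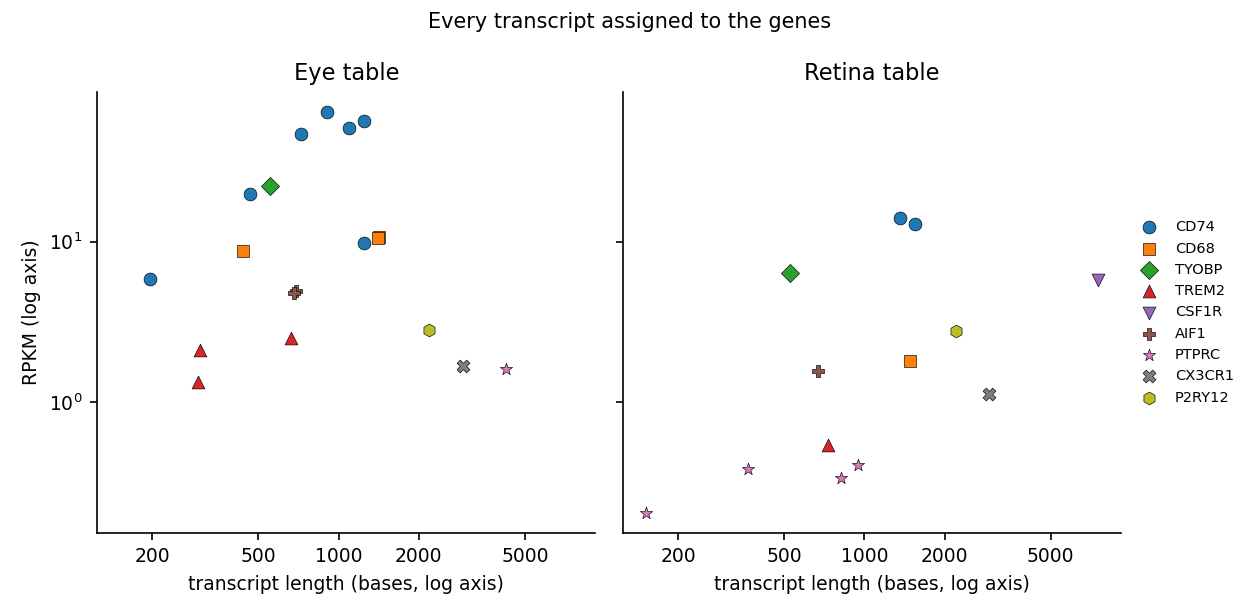
Each point is a transcript of the genes in the eye table (left) and the retina table (right), by length in bases and RPKM, both on log axes. CD74 spreads over 7 eye transcripts and 2 retina transcripts, PTPRC is 1 eye transcript and 4 retina pieces below 0.5 RPKM, and CSF1R appears in retina only, at 7561 bases.

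**Figure D4:**
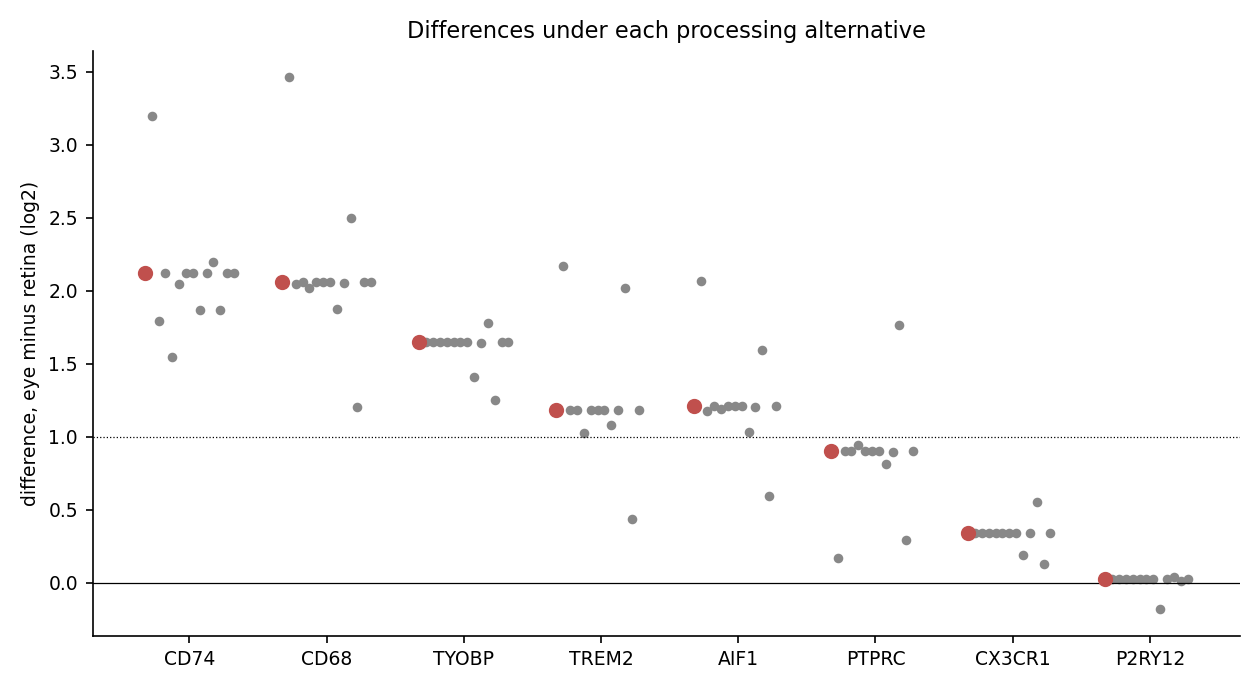
Difference of each gene between eye and retina on the log2 scale as reported (red, leftmost) and under each of the other ways of processing (grey, to its right); the solid line is equality and the dotted line 2-fold. P2RY12 stays between -0.18 and 0.036 and CD68 and CD74 above the 2-fold line throughout, while PTPRC spreads between 0.17 and 1.77.

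Genes of myeloid cells, and of signals that other cells give them, were described through 8 further lists of 71 names. Of these 50 were in both tables, 9 in the eye table only, 1 in the retina table only and 11 in neither. The lists hold names that other cells also make, among them CD200, CD47, TGFBR1 and cathepsins B and D. Their counts and median are therefore not a measure of myeloid cells alone. Of the 48 compared, 43 were higher in eye and 5 lower. The 2-fold mark was passed by 25 toward eye and by none toward retina, and the median was 1.06. Of all proteins 49.7% were higher in eye, 11.8% passed 2-fold toward eye and 3.6% toward retina, and the counts of each list below stand beside these shares. Names below 1 RPKM in retina passed the filter only through eye, so these counts lean toward eye. Levels of listed names and of relatives can also rest on unlike transcripts. GAS6 rested on 1508 bases in eye and 5173 in retina, CD47 on 1157 and 5019, and SPI1 on 2284 and 220.

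The lists nearest to CD74 and CD68 had the highest medians. For antigen presentation, all 4 names compared of 11 passed 2-fold toward eye, and the median was 2.31. Cathepsin S (CATS), which trims the invariant chain, was at 11.3 RPKM in eye and 1.15 RPKM in retina. The lysosomal thiol reductase IFI30 (GILT) was at 14.6 RPKM in eye and 2.01 RPKM in retina. The class II alpha chain names DPA1 and DRA were at 34.4 RPKM in eye and 6.49 RPKM in retina and at 11.2 RPKM in eye and 2.55 RPKM in retina; class II chains are close relatives, so the level of a single one is uncertain. The names DMA, DMB, DOA and DOB were in neither table. All 11 C1q and lysosome names were higher in eye, and 10 passed 2-fold (49.7% and 11.8% of all proteins); the median was 2.32. The C1q chains, which tag synapses and debris for phagocytosis, had similar differences: C1QA was at 11.6 RPKM in eye and 1.53 RPKM in retina, C1QB at 21.8 RPKM in eye and 3.19 RPKM in retina, and C1QC at 13.3 RPKM in eye and 2.17 RPKM in retina. Galectin-3 (LEG3) had the largest difference, 5.63, at 151 RPKM in eye and 2.08 RPKM in retina. The eye also held cornea, with keratin 12 (K1C12) at 2594 RPKM in eye and 1.29 RPKM in retina. Which cells made galectin-3 and the other names of this list was not tested. Cathepsin B (CATB) was at 194 RPKM in eye and 147 RPKM in retina, a difference of 0.40, and cathepsin D (CATD) at 107 RPKM in eye and 50.2 RPKM in retina, but these lysosomal proteases are made by most cells.

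The signalling list, which is not limited to partners of TYOBP, and the transcription factors had lower medians. Of 12 signalling names 8 were compared, 6 were higher in eye, and 3 passed 2-fold (49.7% and 11.8% of all proteins); the median was 0.76. The Fc receptor gamma chain FCER1G (FCERG), an adaptor like TYOBP, was at 12.8 RPKM in eye and 2.65 RPKM in retina. The kinase LYN was at 60.4 RPKM in eye and 5.65 RPKM in retina, the largest difference of the list at 3.21, and the integrin beta-2 chain ITGB2 (ITB2) at 1.83 RPKM in eye and 0.226 RPKM in retina with 14 reads in retina. SIRPA (SHPS1), the receptor of CD47, was at 39.0 RPKM in eye and 48.4 RPKM in retina, and CD200R1 (MO2R1), the receptor of CD200, at 1.09 RPKM in eye and 2.83 RPKM in retina, a difference of -0.87. All 6 myeloid transcription factors compared of 7 were higher in eye, though none passed 2-fold; the median was 0.79. SPI1, or PU.1, which activates CSF1R in mouse and human, was at 1.61 RPKM in eye and 0.345 RPKM in retina with 27 reads, CEBPA at 6.43 RPKM in eye and 3.59 RPKM in retina, and CEBPB at 7.03 RPKM in eye and 3.92 RPKM in retina.

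Of genes enriched in the microglia of mouse and human, all 5 that could be compared, out of 7 listed, were higher in eye, and 2 passed 2-fold; the median was 0.68. GPR34, a lysophospholipid receptor related to P2RY12, was at 1.52 RPKM in eye and 0.596 RPKM in retina. SALL1 was at 1.15 RPKM in eye and 0.338 RPKM in retina, with 29 reads in retina, and TGFBR1 (TGFR1), which many cell types make, was at 4.32 RPKM in eye and 3.87 RPKM in retina. OLFML3 (OLFL3) was at 23.3 RPKM in eye and 1.55 RPKM in retina. TMEM119 (TM119) was in the eye table only, at 4.06 RPKM, and P2RY13 in neither. Of 10 macrophage names of vessels and tissues, 4 were compared, 3 of them higher in eye. One passed 2-fold, CD14, at 2.35 RPKM in eye and 0.492 RPKM in retina. The list median was 0.67. TLR4 was at 6.61 RPKM in eye and 4.19 RPKM in retina and CLEC7A (CLC7A) at 1.02 RPKM in eye and 1.43 RPKM in retina. The mannose receptor MRC1, the scavenger receptor MSR1 (MSRE) and LYVE1 were in the eye table only, at 1.23, 0.709 and 1.80 RPKM. Of the 6 phagocyte oxidase names 3 were compared, all higher in eye. The 2-fold mark was passed by 2, the median was 1.25, and the highest was CYBA (CY24A) at 41.1 RPKM in eye and 8.61 RPKM in retina. RAC2 was at 2.43 RPKM in eye and 0.438 RPKM in retina, and NCF4 at 2.61 RPKM in eye and 1.83 RPKM in retina.

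**Figure D5:**
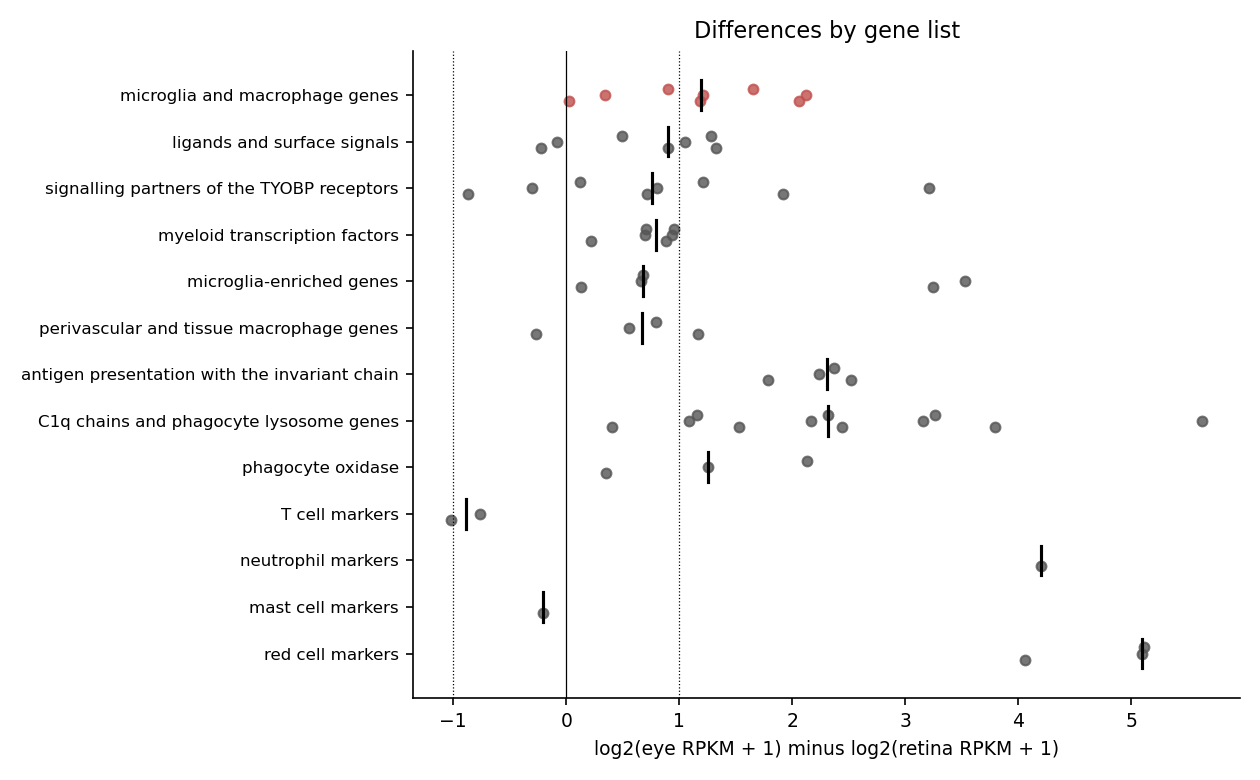
Each point is a gene, by its difference between eye and retina on the log2(RPKM + 1) scale, in the 9-gene set (red, 8 compared) and in the other lists (grey); black bars are list medians and dotted lines the 2-fold mark. Antigen presentation and C1q and lysosome genes have medians of 2.31 and 2.32, above the 1.20 of the 9-gene set.

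Red cell and neutrophil markers also had higher summed levels in eye, and other blood cells make CD74 and PTPRC too. All 3 red cell names passed 2-fold toward eye, with a summed level of 8873 RPKM in eye and 257 RPKM in retina. Of 6 neutrophil names the summed level was 170 RPKM in eye and 4.12 RPKM in retina. NGAL, which epithelia also make, was at 89.7 RPKM in eye and 3.92 RPKM in retina. CSF3R was at 0.587 RPKM in eye and 0.191 RPKM in retina. S10A8 and S10A9 were in the eye table only, at 49.6 and 30.2 RPKM, and the defining enzymes PERM and ELNE were in neither. Which cells made S10A8, S10A9 and NGAL was not tested. Of the B cell names, CD20, CD79A and CD79B were in the eye table only, each below 1 RPKM, and CD22 and PAX5 were in neither. Of 8 T cell names 2 were in both tables, CD3E at 0.749 RPKM in eye and 1.97 RPKM in retina and CD5 at 84.8 RPKM in eye and 173 RPKM in retina; 4 were in the eye table only, each below 1 RPKM, and CD3Z and CD2 were in neither. CD5 thus made up most of the T cell sum of 88.5 RPKM in eye and 175 RPKM in retina. Its highest transcripts were 1263 bases long in eye and 665 in retina, and whether they come from the CD5 gene was not tested. The sum is therefore not read as a level of T cells. Of 4 mast cell names only KIT was in both tables, CBPA3 was in the eye table only at 0.586 RPKM, and FCERA and FCERB were in neither, with sums of 11.6 RPKM in eye and 12.9 RPKM in retina. The part of these cells in the levels of the 9 genes was not tested.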

How the data were processed

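Each tissue has 1 table of assembled transcripts with an expression value and a length, and 1 table of best Swiss-Prot hits with a percent similarity and an alignment score, per the file headers. The authors deposited values whose header names no unit, and these were taken to be RPKM, which the authors scaled by transcript length and a total for each tissue, since value times length was a whole multiple of 1 constant within 0.01 reads for 100% of transcripts, which corresponds to totals of 264219334 reads for eye and 355988270 for retina. Recovered reads summed to 19.2 and 10.5 times those totals, so reads may recur across transcripts and intervals may be too narrow. The submitters' processing notes name Bowtie, with no version; assembler and counting mode: not given in the sources used here. Similarity, a percent in the deposited tables, equals positives over alignment length within 1 point for 100% of hits, and the deposited score was used only to choose the best-matching transcript.

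Hits were joined to values on the transcript ID with Python 3.11.15 and pandas 2.3.3. Proteins found in both tables that reached 1 RPKM in eye or in retina were compared at a pseudocount of 1, and called at 2-fold. The functions were tested on simulated data. The genes and lists were chosen with earlier results of these data known. Named genes are the 9 genes, the 3 most abundant and the most extreme of each list, and others added after their values were seen (the ligands, absent and C1q names, GPR34, SALL1, SPI1 and ITB2 among them). RefSeq's mIctTri1.hap1 table, used for neighbouring genes only, held 8 of the 9 symbols. Alternatives were other levels per protein, hit filters, scalings, pseudocounts and filters. Some names that these rules select are not reported here.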

Additional observations from a re-analysis of the deposited data

How the results depend on the processing

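All 8 genes in both tables stayed higher in eye under the alternatives tried, except P2RY12 after rescaling to an equal total, and the 5 genes that the filter at 10 RPKM removed. The median difference of the genes, 1.20, was 1.86 with sums over transcripts, 1.11 with length-weighted means, 1.06 after rescaling to an equal total, 1.77 with pseudocount 0.1, 0.52 with pseudocount 5 and 2.06 with the filter at 10 RPKM, which kept 3 genes. The number at least 2-fold higher in eye was 3 with pseudocount 5 and 3 of 3 with that filter (6.09% and 12.8% of all proteins), where 3 were higher in eye at any size, and was 5 or 6 otherwise. The median of the 8 further lists, 1.06, was 0.93 with sums, 0.96 with best-matching or longest transcripts and 0.85 after rescaling. It was 1.63 and 0.46 with pseudocounts 0.1 and 5, and 2.17 with the filter. The cause was not tested, but pseudocounts shrink or widen differences of low genes by construction and the filter removes low genes. No paired analysis was possible because the tables hold 1 value per tissue and none per library, so leaving out a library was not run either. Depth set counting half-widths of 0.039 to 0.13 on the differences of the 8 genes.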

Other observations

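Relatives of the genes were looked up after the values of the genes had been seen. AIF1L, a paralog of AIF1 made by many cell types, was more abundant than AIF1 in both tables, at 21.4 RPKM in eye and 26.2 RPKM in retina, and its difference of -0.28 had the opposite sign to that of AIF1. The P2RY12 relative P2RY14 (P2Y14) was at 2.69 RPKM in eye and 1.28 RPKM in retina. LAMP1 and LAMP2, the ubiquitous relatives of CD68, were at 145 RPKM in eye and 87.5 RPKM in retina and at 37.8 RPKM in eye and 24.0 RPKM in retina, differences of 0.72 and 0.63 beside the 2.06 of CD68. HCST, an adaptor related to TYOBP, was in the eye table only, at 0.894 RPKM, as was TREML1 (TRML1), at 0.679 RPKM. TREM1 and TREML2 were in neither table.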
